A study of Caenorhabditis elegans with 2 samples.

Results

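Of the 2349 nuclear peaks that passed the authors' reproducibility threshold in a chromatin immunoprecipitation of LET-607 from Caenorhabditis elegans, 340 had their summit inside an intron and outside the promoter windows of protein-coding genes. Members were the peaks of the authors' reproducibility-thresholded list (irreproducible discovery rate, IDR) on build ce11 whose summit lay in a protein-coding gene but in no exon of one. Summits in a promoter window, which ran from 1000 bp before to 200 bp after the 5′ end of a protein-coding gene, or within 100 bp of a gene annotated as tRNA or ncRNA, were left out. The list held 2372 peaks with the 23 mitochondrial peaks. Of the 786 nuclear summits in a protein-coding gene, 255 lay in an exon and 531 in none. Of those 531, 71 lay in a promoter window, and 120 of the others lay near a tRNA or ncRNA gene, which left the 340 intronic peaks.

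The worms were hermaphrodite young adults of strain YL529, taken 67 h after synchronization as starved L1 larvae, and carried LET-607 tagged at its C-terminus with GFP-FLAG. An anti-GFP antibody was used on whole animals, so all tissues were pooled and a peak cannot be assigned to a cell type. There was 1 group of 2 biological replicates from 1 transgenic line, with no second genotype or treatment, and no untagged animals were analysed here. No read counts came with the peak lists, and the depth is therefore unknown. The signal of a peak is the authors' own value on an unstated scale, and it was used only to rank and describe peaks within a list. The IDR list takes its signal from the pooled data, and for 330 of the members that value exceeded the peak of each replicate.

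LET-607 belongs to the CREB3 family of bZIP transcription factors, proteins anchored in the endoplasmic reticulum (ER) membrane and released to the nucleus by proteolysis. In mammals the family is known for switching on genes of the secretory pathway, and bZIP factors of this kind bind the cAMP response element, whose core is TGACGT. Introns of C. elegans genes can hold enhancers and internal promoters, and the first intron often carries regulatory sequence.

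The sequences under the summits are shown first, as the 101 bases centred on each summit, on the plus strand of WBcel235 (ce11) as given by RefSeq. Capitals mark the cAMP response element core TGACGT, the E-box CACGTG, or the core of GATA sites, which reads TGATAA, on either strand. The 6 strongest members with TGACGT on chromosomes II, III, IV, V and X lay in introns of the following genes.
R10E11.5 (chrIII:9786888-9786988): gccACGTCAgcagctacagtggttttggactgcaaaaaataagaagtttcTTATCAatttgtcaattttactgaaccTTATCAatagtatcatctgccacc
crh-2 (chrII:5182601-5182701): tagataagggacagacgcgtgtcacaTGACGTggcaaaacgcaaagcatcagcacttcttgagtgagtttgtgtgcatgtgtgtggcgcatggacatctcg
try-10 (chrV:13012065-13012165): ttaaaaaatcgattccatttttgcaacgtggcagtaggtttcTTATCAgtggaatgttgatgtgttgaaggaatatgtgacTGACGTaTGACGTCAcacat
ifbp-1 (chrV:13377289-13377389): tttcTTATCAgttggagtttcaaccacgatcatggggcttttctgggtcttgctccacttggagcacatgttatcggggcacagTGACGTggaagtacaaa
fbxl-5 (chrV:7748160-7748260): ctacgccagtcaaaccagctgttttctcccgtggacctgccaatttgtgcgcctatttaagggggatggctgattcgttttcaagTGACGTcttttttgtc
nhr-31 (chrIV:8026499-8026599): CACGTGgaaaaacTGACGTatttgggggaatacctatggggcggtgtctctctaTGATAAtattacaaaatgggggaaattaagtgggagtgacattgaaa
In R10E11.5, crh-2 and ifbp-1 the match belongs to the longer form TGACGTGG, while try-10 holds overlapping copies near the end of its window. R10E11.5, try-10 and ifbp-1 also hold TGATAA, and nhr-31 holds all 3 marked sequences. The summit of R10E11.5 lies in an intron of 47 bp, so 54 of the 101 bases shown are exonic.

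On the same chromosomes, the 3 strongest members without TGACGT also lack both other marked sequences in this window.
F17C11.22 (chrV:10968115-10968215): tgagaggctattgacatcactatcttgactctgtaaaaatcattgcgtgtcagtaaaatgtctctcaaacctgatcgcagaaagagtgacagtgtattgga
ncl-1 (chrIII:7728672-7728772): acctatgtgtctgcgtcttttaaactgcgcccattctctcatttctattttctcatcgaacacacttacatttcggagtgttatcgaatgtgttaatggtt
mom-1 (chrX:6296525-6296625): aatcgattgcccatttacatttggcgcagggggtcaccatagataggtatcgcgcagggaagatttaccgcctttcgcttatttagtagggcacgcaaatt
For F17C11.22 the intron is 40 bp long and 61 of the bases shown are exonic. The next 4 windows, chosen after their values were seen, are the strongest there with CACGTG and no TGACGT. Of the 3 marked sequences, the last pair, chosen in the same way, holds only TGATAA.
sahd-1 (chrII:5512569-5512669): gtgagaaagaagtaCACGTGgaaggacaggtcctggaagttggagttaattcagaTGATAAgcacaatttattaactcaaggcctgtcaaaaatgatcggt
unc-3 (chrX:14780368-14780468): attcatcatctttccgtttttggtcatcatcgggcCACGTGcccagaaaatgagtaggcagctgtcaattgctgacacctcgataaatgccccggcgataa
fkh-7 (chrIV:5591277-5591377): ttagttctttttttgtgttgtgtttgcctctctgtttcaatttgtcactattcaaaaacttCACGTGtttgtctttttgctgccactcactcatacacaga
pqn-18 (chrX:12911358-12911458): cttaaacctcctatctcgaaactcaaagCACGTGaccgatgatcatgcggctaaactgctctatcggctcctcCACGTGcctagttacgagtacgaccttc
pkg-2 (chrIV:8527732-8527832): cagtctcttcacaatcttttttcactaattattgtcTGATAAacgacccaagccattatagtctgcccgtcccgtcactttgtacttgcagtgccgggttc
arf-1 (chrIII:5715338-5715438): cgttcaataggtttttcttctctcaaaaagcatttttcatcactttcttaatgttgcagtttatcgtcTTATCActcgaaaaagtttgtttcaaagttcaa
In unc-3 and fkh-7 the marked sequence lay 12.5 and 13.5 bp from the summit, and in sahd-1 the TGATAA lay 7.50 bp from it. A match is a description of the letters in the window and not a binding site or a cause.

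Intronic peaks were a minority class. They made up 14.5% of nuclear IDR peaks (95% exact Clopper-Pearson interval 13.1 to 16.0), while the bases that met the same rule made up 29.6% of the nuclear genome. That is 11.4 peaks per Mb of the 29.7 Mb of eligible intron, against 49.9 per Mb in promoter windows, 17.1 per Mb between genes and 5.05 per Mb in exons. Intervals cover counting error only. On the members' own scale the signal ran from 78.7 to 2024 with a median of 119.6, and the middle 50% lay between 94.0 and 189.7. The 1046 promoter peaks had a median of 124 and the 415 intergenic peaks a median of 125. At the very top intronic peaks were few: 1 was among the 20 strongest nuclear peaks and 5 among the 100 strongest, against 16 and 65 promoter peaks. Among the 500 strongest there were 78 intronic and 244 promoter peaks. Intronic and promoter peaks made up 14.5% and 44.5% of all nuclear peaks, so this shortfall was limited to the very top ranks.

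The classes were also split at 1 value of signal, and there a difference was not detected. The share above the nuclear list's median signal of 121 was 49.4% of intronic peaks (44.0 to 54.9), 52.0% of promoter peaks (48.9 to 55.1) and 51.6% of intergenic peaks (46.6 to 56.5). The odds ratio was 0.901 against promoter peaks and 0.917 against intergenic peaks, with an adjusted p of 0.809 for each (two-sided Fisher's exact test, Benjamini-Hochberg over the 12 comparisons made between classes). Peaks are not replicates of a condition, so these p-values hold for this set of peaks only and carry no estimate of the spread between cultures.

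**Figure D1:**
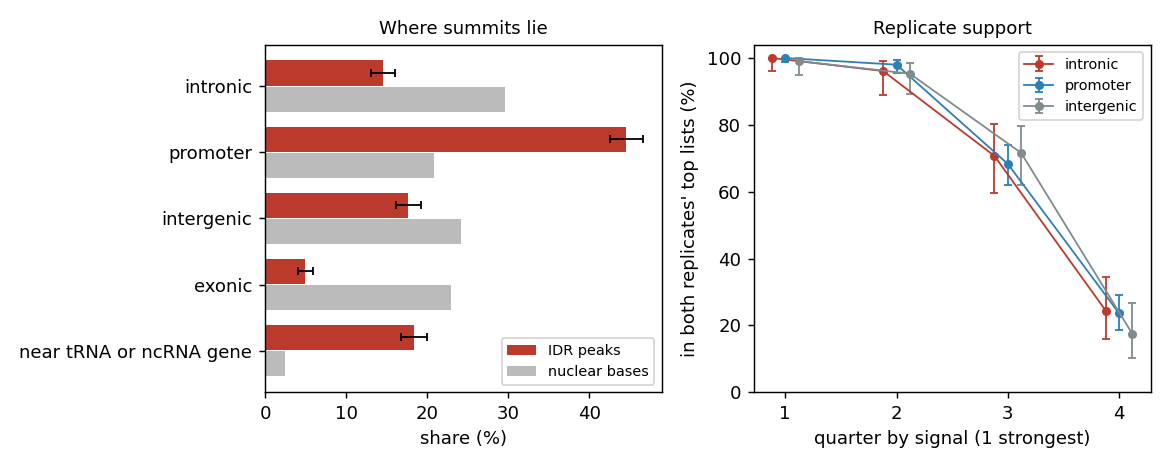
Left, the share of nuclear IDR peaks (red, with 95% exact intervals) and of nuclear bases (grey) in each class; right, the share of peaks present in both replicates' strongest lists, in 4 groups of the nuclear list by signal, with 95% exact intervals. Intronic peaks hold 14.5% of peaks on 29.6% of bases, and the 3 classes have overlapping intervals in every signal group.

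The replicates were compared through their own relaxed peak lists, which held 26463 peaks in replicate 1 and 22592 in replicate 2. Members had passed a threshold on agreement between these same replicates, and their signal comes from the pooled data. The agreement described below is therefore partly built in and is not independent support. A relaxed peak of both replicates overlapped 338 of the 340 members by at least 1 bp. The exceptions, in K05C4.2 and Y65A5A.2, had no peak in replicate 1 and signals of 73.2 and 47.8 in replicate 2. A stricter count asked for a peak within the 2372 strongest of each replicate, and 245 members met it (72.1%, 67.0 to 76.8). The shares were 73.2% for promoter peaks and 72.8% for intergenic peaks (odds ratios 0.943 and 0.965, adjusted p = 0.809 and 0.898, Fisher's exact test). Support followed signal: 91 of 91 members in the strongest of 4 signal groups met the stricter count, then 96.1%, 70.7% and 24.4%. For the same 338 members Spearman's rho between the replicates' signals was 0.704, given as a description because peaks of a replicate share its library. Of the members, 24 shared their peak in each replicate with another member, so their replicate values are not separate measurements.

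**Figure D2:**
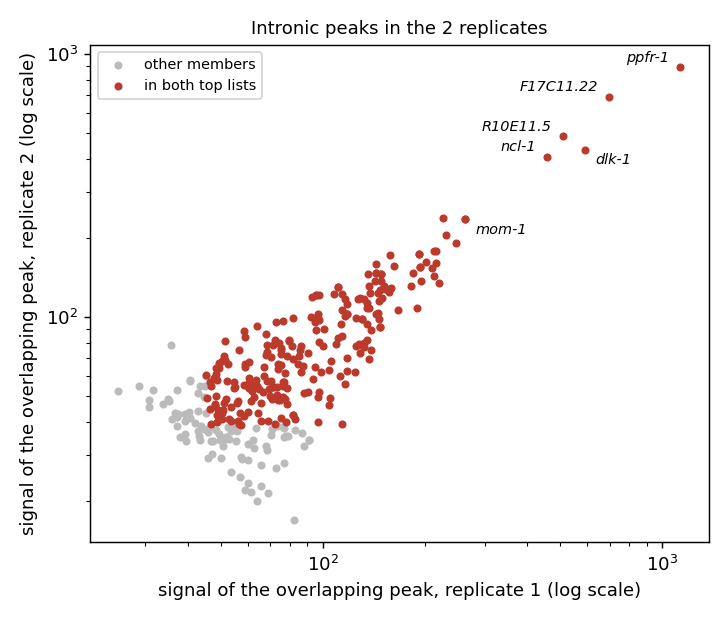
Signal of the overlapping peak in replicate 1 (x axis, log scale) and replicate 2 (y axis, log scale) for the 338 members with a peak in both; red points are the 245 members in both replicates' strongest lists. The 5 members above a pooled signal of 500 stand apart in both replicates, from 457 to 1130 in replicate 1 and from 408 to 893 in replicate 2.

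The strongest members formed a short head and a long tail. The strongest lay in intron 5 of 22 of ppfr-1, a regulatory subunit of protein phosphatase 4, with a signal of 2024 in the pooled list, 1130 in replicate 1 and 893 in replicate 2. It ranked 17 among nuclear peaks. F17C11.22 followed at 1374 (695 and 690.3 in replicates 1 and 2). The peak in the first intron of dlk-1, a kinase of axon regeneration, reached 1025 (591 and 433). R10E11.5 had 984 (509 and 487). The peak in ncl-1, which encodes a B-box protein that restrains nucleolar size, had 842 (457 and 408). These 5 were the only members above 500 in the pooled list. Each was high in both replicates, which the pooling and the IDR threshold partly build in.

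The next values fell below 500 and declined slowly. They began with mom-1, the porcupine-type enzyme that lipid-modifies Wnt proteins, at 494 (262 and 236). A peak in dnj-20, which encodes a J-domain co-chaperone of the ER, had 469 (226 and 239), and another in the same intron had 392 (212 and 178). The engulfment transporter gene ced-7 had 440.3 (246 and 191). The CREB-related bZIP gene crh-2 had 435 (231 and 206). Further hosts among the 25 strongest were sahd-1 (393), the autophagy gene epg-9 (377), the DNA repair nuclease gene ercc-1 (365) and the Golgi tether gene uso-1 (355). Y41G9A.17 had 351 and Y111B2A.12 had 349.8. The serotonin transporter gene mod-5 had 349, and zfp-1, a chromatin factor of the AF10 type, had 347. Transcription factor genes followed with unc-3 at 337, the EBF-type regulator of motor neurons, and fkh-7 at 329.6, of the forkhead family. The group was completed by try-10 (336), the peroxidasin gene pxn-1 (321), ifbp-1 (313), gei-4 (303) and the cGMP-dependent kinase gene pkg-2 (291). All 25 were in both replicates' strongest lists, and 5 of the 25 lay in the first intron of their host. The peak of uso-1 had its summit 1 bp from an exon, and that of pxn-1 lay within 100 bp of a snoRNA gene.

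Hosts were named as the gene whose longest transcript had an intron at the summit. The nearest 5′ end of a protein-coding gene belonged to a gene over the summit for 248 of 340 members (72.9%, 67.9 to 77.6). Another gene's 5′ end was nearer for, among others, the peaks in ncl-1, mom-1, ced-7, crh-2, ercc-1, mod-5 and coq-3. A host is therefore given by position, and whether a peak acts on it was not tested. With every gene over a summit counted, 288 of 19973 protein-coding genes held an intronic peak, which is 1.44% of them, or 1.64% of those with any eligible intronic base. Hosts were long: the median member's host measured 8582 bp, against 2027 bp for all protein-coding genes. The share of genes that were hosts was 0.348% with under 1000 bp of eligible intron, 2.00% up to 5000 bp, 7.21% up to 10000 bp and 15.4% above that. With each peak given to 1 host there were 284 hosts, of which 245 held 1 peak, 27 held 2 and 12 held more.

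Hosts with 4 members were zfp-1, pkg-2, pqn-41, abts-4 and Y43F8B.2. In zfp-1 the signals were 347, 191, 158 and 105, spread over 6249 bp. In pkg-2, where all 4 lay in intron 4, they were 291, 205, 97.2 and 82.3. The glutamine-rich gene pqn-41 had 274, 186, 180.5 and 109.7 within a single intron, intron 14. Its members at 274 and 180.5 fell on the same peak in each replicate (148 in replicate 1 and 146 in replicate 2), so they are not separately supported. The anion transporter gene abts-4 had 212, 183, 114 and 91.7. Y43F8B.2 had 207, 149, 146 and 115, all in intron 4. The ER co-chaperone gene dnj-20 had 3 members in intron 6, with signals of 469, 392 and 205 over 2738 bp. The weakest of them had 92.8 in replicate 1 and 119 in replicate 2. In ppfr-1 the other 2 members were weak, at 88.2 and 84.9, and in Y111B2A.12 the signals were 349.8, 199 and 93.5.

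Some genes held both an intronic peak and a promoter peak. Of the 288 hosts, 32 (11.1%, 7.73 to 15.3) also had an IDR summit in their own promoter window, against 6.48% of all genes with eligible intron. Hosts are longer than other genes, and the part of length in this difference was not tested. The strongest such hosts were dnj-20, Y111B2A.12, gei-4, fbxl-5, nhr-31 and coq-3. Among the 24 distinct hosts of the 25 strongest members, 3 had a promoter peak.

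Gene lists drawn up for functions tied to LET-607 or to tissues of the worm held between 0 and 8 hosts each. The share over all eligible genes was 1.64%, a reference that takes no account of intron length. Since the share of hosts rose with eligible intron, peaks per Mb of eligible intron are given as well. Of 26 genes of ER folding and the unfolded protein response, 1 was a host, dnj-20, while 13 had a promoter peak. Of 36 genes of ER-Golgi transport, 2 were hosts, uso-1 and the small GTPase gene arf-1 (282), while 21 had a promoter peak. Over all protein-coding genes, 6.69% had a promoter peak. The host shares were 3.85% (0.0973 to 19.6) and 5.56% (0.680 to 18.7), with intervals that include that of all eligible genes. Per Mb of eligible intron they held 77.8 and 39.4 peaks against 11.4 over all, from 3 peaks each. With transcript 5′ ends in place of gene 5′ ends no ER-Golgi host was left, and with 2000 bp windows 1 was. The peaks of uso-1 and arf-1 lie near internal transcript starts. Of 31 bZIP factor genes, 5 were hosts (16.1%, 5.45 to 33.7), which is 42.0 peaks per Mb. They included crh-2 at 435, the pathogen-response factor gene zip-2 at 112, zip-5 at 109 and jun-1 at 107. The last 3 were below the nuclear median of 121, and with only the peaks above that median 1 bZIP host was left.

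Metabolic and signalling lists gave small counts. Of 54 lipid genes, 5 were hosts (9.26%, 3.08 to 20.3), with 72.7 peaks per Mb, and 2 were with transcript 5′ ends or with only peaks above the median signal. They included pmt-1, an enzyme of phosphatidylcholine synthesis, at 236, the fatty acid desaturase gene fat-4 at 139, a further phosphatidylcholine synthesis gene, pcyt-1, at 93.3 and the nuclear receptor gene nhr-49 at 90.8. The insulin and TOR list gave 2 of 27 (7.41%, 0.910 to 24.3; 15.3 peaks per Mb), let-363, the TOR kinase, at 283 and daf-16, the FOXO factor, at 80.3. Without replicate 1, with 2000 bp windows or with only peaks above the median signal, 1 was left. The Rab and Arl list gave 3 of 57 (5.26%, 1.10 to 14.6; 14.3 peaks per Mb), the Rab GTPase-activating protein gene tbc-3 at 235, the endocytic Rab exchange factor gene rme-4 at 165 and the Rab2 gene unc-108 at 101. None of them was left with transcript 5′ ends.

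Among lists tied to tissues, the intestine list gave 4 of 35 (11.4%, 3.20 to 26.7; 57.4 peaks per Mb), and 1 with only peaks above the median signal. They were the intermediate filament gene ifc-2 at 202, the microvillar actin regulator gene eps-8 at 117, the cathepsin gene cpr-6 at 109.5 and the membrane-cytoskeleton linker gene erm-1 at 78.9. Nuclear hormone receptors gave 8 of 274 (2.92%, 1.27 to 5.67; 19.0 peaks per Mb), 5 with transcript 5′ ends and 3 above the median signal. They were led by nhr-31 at 276, nhr-27 at 248, nhr-19 at 225 and nhr-3 at 105. The basement membrane list gave pxn-1 as 1 of 28 (3.57%, 0.0904 to 18.3, with 7.37 peaks per Mb), and none once peaks near any noncoding gene were left out. The next 4 lists held fewer peaks per Mb of eligible intron than the 11.4 over all. Their intervals include the share of all eligible genes. So do those of the basement membrane, nuclear hormone receptor, insulin and TOR, and Rab and Arl lists. None of 51 sarcomere and muscle attachment genes was a host (0 to 6.98%) in 296 kb of eligible intron, and none of 62 cell adhesion and axon guidance genes (0 to 5.78%) in 481 kb. Ion channels gave 1 of 99, twk-5 at 156, near a snoRNA gene (1.01%, 0.0256 to 5.50). This was 1.76 peaks per Mb over 567 kb, and no host was left without peaks near any noncoding gene. Homeobox genes gave 1 of 98, ceh-60 at 138, in 269 kb (1.02%, 0.0258 to 5.55), which is 3.71 peaks per Mb. These counts describe the lists and were not tested.

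Within their hosts, intronic peaks exceeded the share of eligible bases in the first intron. The first intron held 124 of 340 members (36.5%, 31.3 to 41.8) and 22.8% of eligible bases, a ratio of 1.60. The second intron held 13.8% of members and 16.2% of bases, and later introns held 49.7% and 61.1%. The median summit lay 3150 bp from the host's 5′ end and 40.3% of the way along it. Long introns held more than their share of peaks: introns over 5000 bp held 29.4% of members (24.6 to 34.6) and 14.8% of eligible bases, and those of 500 bp or less held 17.4% and 27.0%.

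The annotation places transcript starts near many of these summits. A promoter-sized window around the 5′ end of a shorter protein-coding transcript held 107 members (31.5%, 26.6 to 36.7), against 10.9% of eligible bases, a ratio of 2.89. With transcript 5′ ends in place of gene 5′ ends, those 107 left the class and the intronic share fell to 9.92% of nuclear peaks. The first-intron share of the members left was 27.9% (22.2 to 34.1). That interval includes 22.8%, the first-intron share of eligible bases under the gene rule. The share of bases under the transcript rule was not computed. R10E11.5, sahd-1, uso-1, zfp-1 and try-10 were the 5 of the 25 strongest with such a transcript start nearby. The peak interval touched an exon in 111 members and a promoter window in 25. Overlapping with these, 27 members lay within 100 bp of a noncoding gene of other types, 18 of them at snoRNA genes.

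**Figure D3:**
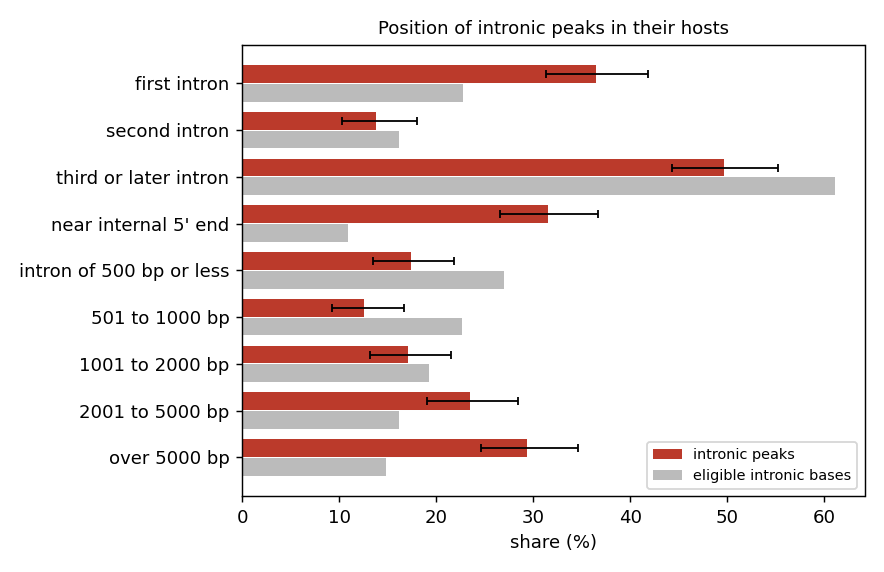
Share of the 340 intronic peaks (red, with 95% exact intervals) and of the eligible intronic bases (grey) by intron order, by nearness to an internal transcript 5′ end, and by intron length. Peaks exceed their share of bases in the first intron, near internal 5′ ends and in introns over 2000 bp.

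At the edges of the rule, members and near misses were compared. The member nearest to a promoter window, in hrpk-1, lay 3 bp outside it with a signal of 162, and znf-593 lay 45 bp outside with 117. Just inside the window were picc-1 by 12 bp with 80.8 and F28D9.4 by 16 bp with 152. Near noncoding genes, sel-8 was kept at 105 bp with 86.0, while a further peak in ppfr-1 with a signal of 535 was left out at 95 bp.

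Peaks were spread over all chromosomes. Per Mb of eligible intron there were 14.5 on X, 14.2 on III, 14.1 on II, 11.2 on IV, 7.94 on I and 7.76 on V. The X chromosome held 20.9% of intronic peaks (71 of 340), 16.2% of promoter peaks and 27.5% of intergenic peaks. It also held 16.5% of the eligible intronic bases. The tests compare raw shares of peaks and take no account of how much of each class's bases lies on X. The odds ratios were 1.37 against promoter peaks and 0.697 against intergenic peaks, with an adjusted p of 0.192 for each (Fisher's exact test). With promoter windows of 2000 bp they were 1.60 and 0.620 (adjusted p = 0.0191 and 0.0471, Fisher's exact test), and without replicate 1 the odds ratio against intergenic peaks was 0.606 (adjusted p = 0.0370, Fisher's exact test).

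The sequence content of the summits was counted as the share of 101-base windows with a given short sequence on either strand. Flanking windows of the same length, centred 300 bp to each side, served as a local reference, together with 294030 windows of that length over all eligible introns. The cAMP response element core TGACGT, the site type known for CREB-family factors, was in 31 members (9.12%, 6.28 to 12.7), in 3.09% of flanks and in 2.67% of all eligible windows. Its longer form TGACGTGG was in 9 members (2.65%) and 0.441% of flanks. GACGTG, which overlaps TGACGTGG, was in 5.59% and 1.91%. TGACTCA, the AP-1 site, was in 1 member and 1.03% of flanks. Promoter peaks held TGACGT in 10.4% and intergenic peaks in 8.67%, and a difference from intronic peaks was not detected (odds ratios 0.862 and 1.06, adjusted p = 0.809 and 0.898, Fisher's exact test).

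Among the 3 sequences tested, TGATAA differed between intronic and promoter peaks. It is the core recognised by GATA factors, which in C. elegans include the intestinal regulator ELT-2. It was in 84 of 340 intronic windows (24.7%, 20.2 to 29.6) and in 139 of 1046 promoter windows (13.3%, 11.3 to 15.5), an odds ratio of 2.14 (adjusted p = 2e-05, Fisher's exact test). Flanks held it in 10.7% for intronic and 9.99% for promoter peaks, and all eligible intronic windows in 8.81%. The call was lost with 25 bp to each side of the summit, where the shares were 10.9% and 6.88% (odds ratio 1.65, adjusted p = 0.192, Fisher's exact test). Intergenic peaks held it in 23.1%, and a difference from intronic peaks was not detected (odds ratio 1.09, adjusted p = 0.809, Fisher's exact test).

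The E-box CACGTG, a palindrome bound by basic helix-loop-helix and some bZIP factors, showed the largest ratio to flanks among the sequences found in 10 or more members. It was in 50 members (14.7%, 11.1 to 18.9), in 1.62% of flanks and in 1.39% of all eligible windows. Promoter peaks held it in 7.17% (5.68 to 8.91) and intergenic peaks in 11.1% (8.23 to 14.5); this difference between classes was not tested. The repeat GAGAGA was in 71 members (20.9%), in 6.47% of flanks and in 17.5% of promoter peaks (odds ratio 1.24, adjusted p = 0.511, Fisher's exact test). Against the 18.6% of intergenic peaks its odds ratio was 1.16 (adjusted p = 0.809, Fisher's exact test).

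Base composition also differed between these windows. Summit windows of intronic peaks had a median GC content of 42.6%, against 32.7% in all eligible intronic windows and 45.5% at promoter peaks. TGCAGT, which is TGACGT written backwards and served as a control of equal composition, was itself in 6.47% of members, 3.09% of flanks and 3.05% of all eligible windows. The part of base composition in the other shares was not tested. Of the 340 members, 150 (44.1%) held none of the cAMP response element core, the E-box, the GATA core and the repeat.

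**Figure D4:**
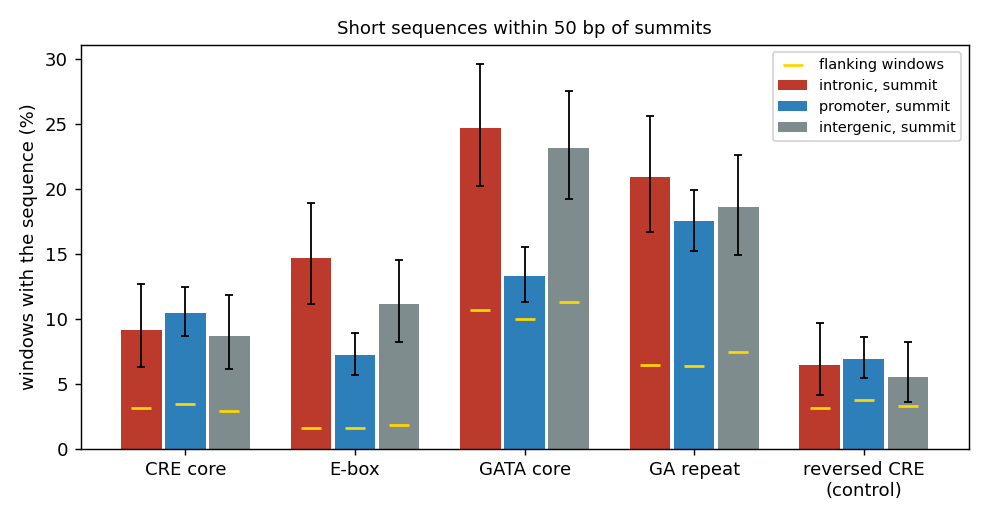
Share of 101-base windows holding each short sequence at summits of intronic, promoter and intergenic peaks (bars, with 95% exact intervals) and in their flanking windows (yellow lines). The GATA core is at 24.7% of intronic and 13.3% of promoter summits, and the E-box is at 14.7% and 7.17%.

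The sequences differed in how tightly they gathered at the summit. Of the 101 occurrences of CACGTG within 200 bp of a member's summit, 53 (52.5%) lay within 50 bp of it and 34 within 25 bp. For TGACGT, 37 of 90 occurrences (41.1%) lay within 50 bp. For TGATAA the count was 112 of 335 (33.4%), with 43 within 25 bp, and for GAGAGA 163 of 504 (32.3%). The TGATAA occurrences were thus spread over the window more than those of CACGTG.

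**Figure D5:**
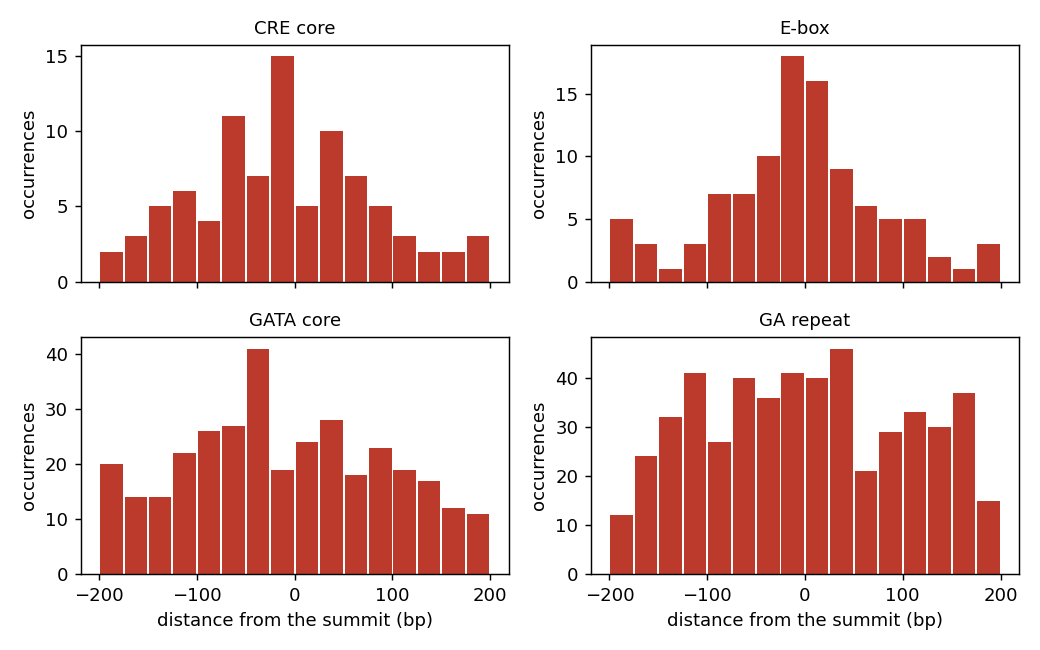
Number of occurrences of each short sequence by distance from the summit of the 340 intronic peaks, in bins of 25 bp. The E-box has 34 of its 101 occurrences in the central pair of bins, while the GATA core has 43 of 335 there and the GA repeat 81 of 504.

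Some members held more than 1 of these sequences. TGACGT and CACGTG were together in 2 members, nhr-31 among them, while 14 of the 31 members with TGACGT and 15 of the 50 with CACGTG also held TGATAA. The cAMP response element core was in 12.5% of the 168 members above the nuclear median signal (7.91 to 18.5) and in 5.81% of the 172 below it (2.82 to 10.4). For CACGTG the shares were 17.9% and 11.6%, and for TGATAA 22.0% and 27.3%. Among members in both replicates' strongest lists CACGTG was in 18.0% (13.4 to 23.3), and among the other members in 6.32% (2.35 to 13.2). For TGATAA these shares were 22.9% and 29.5%. On X, CACGTG was in 22.5% and TGATAA in 32.4% of members, against 12.6% and 22.7% on the autosomes. These subsets were compared as a description only, and most of their intervals overlap.

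The strongest members with TGACGT were R10E11.5 (984), crh-2 (435), try-10 (336), ifbp-1 (313), the F-box gene fbxl-5 (288; 159 and 129 in replicates 1 and 2), the HNF4-type receptor gene nhr-31 (276; 157 and 125), the ubiquinone synthesis gene coq-3 (271; 142 and 137) and the TEAD factor gene egl-44 (269.9; 145 and 124). Of the 25 strongest members, 4 held TGACGT, 5 CACGTG, 6 TGATAA and 7 GAGAGA.

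Some members were close neighbours. Another IDR summit lay within 250 bp of 28 members, and none within 100 bp, and for 24 of these the neighbour was itself a member, as in mom-1, arf-1 and dbt-1. The arf-1 pair, 200 bp apart, had pooled signals of 282 and 198, and both fell on the same peak in each replicate. In 253 members (74.4%) the peak had the fixed width of 424 bp.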

How the data were processed

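LET-607 tagged with GFP and FLAG was immunoprecipitated from whole worms per the labels, which name 2 biological replicates. The authors deposited relaxed peak lists per replicate and pooled, and an IDR-thresholded list. Peaks were on ce10 and ce11, and the ce11 lists were used. The deposited signal per peak (column 7) is the authors' value without a stated scale. Which aligner and caller were run is not given in the sources used here. Depth is unknown, and intervals are exact Clopper-Pearson intervals at 95% that cover counting error only.

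Genes, transcripts and exons came from Ensembl release 115 on WBcel235, and sequences from RefSeq on the same build. Coordinates are 1-based. Each nuclear IDR summit was placed in 1 of 5 classes: promoter, near a tRNA or ncRNA gene, exonic, intronic or intergenic. Classes were compared by two-sided Fisher's exact tests, adjusted by Benjamini-Hochberg over 12 comparisons at a threshold of 0.05. Of the 8 motifs counted, 3 were tested. The test was checked on simulated data. The label of biological replicates does not state separate cultures.

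The members, the 13 host lists and the motifs were chosen with earlier results of these data known. The gene scd-1 was taken out of the lipid list after its hosts were seen, since it is not a lipid gene. Named genes were the hosts of the 25 strongest members, up to 8 hosts with the most members, up to 4 hosts per list and the 8 strongest members with TGACGT. Other peaks and genes named for a count, an edge or a sequence were added after their values were seen.

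Alternatives were only the peaks above the median signal, leaving out each replicate (with the 2372 strongest peaks of its partner instead), other promoter windows, transcript 5′ ends, any noncoding gene left out, motif windows of 25 and 100 bp, other overlap rules and merged summits. Software was Python 3.11.15, scipy 1.17.1 (tests and intervals), numpy 2.4.6, pandas 2.3.3, and for figures matplotlib 3.10.9.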

Additional observations from a re-analysis of the deposited data

How the results depend on the processing

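Merging summits within 100 bp changed nothing, since no member had a neighbour that close, and is not counted here. Of 106 other recomputed comparisons between classes, 88 kept their direction and side of the threshold, most of them without a call, 1 lost its call, 3 gained one and 14 turned direction, in each of which no call was made before or after. The call lost was TGATAA against promoter peaks with 25 bp windows (odds ratio 1.65); over the other alternatives it held. Calls gained were X against promoter (1.60) and intergenic peaks (0.620) with 2000 bp windows, and X against intergenic peaks without replicate 1. With each replicate left out, odds ratios ran from 0.606 to 0.769 for X against intergenic, 0.780 to 1.02 for TGATAA against intergenic, 0.995 to 1.18 for GAGAGA against intergenic, 0.848 to 1.06 for peaks above the median signal against promoter and 0.920 to 1.48 for TGACGT against intergenic peaks. Other odds ratios that turned were, with only peaks above the median signal, 1.59 (both replicates' strongest lists, against intergenic), 1.00 (TGACGT against promoter) and 0.903 (TGATAA against intergenic). For presence in both replicates' strongest lists against promoter peaks they were 1.03 with 2000 bp windows and 1.13 with transcript 5′ ends, and against intergenic peaks 1.10 with transcript 5′ ends and 1.64 with any relaxed peak. TGACGT against intergenic peaks gave 0.829 with transcript 5′ ends and 0.975 with summits within 250 bp merged, a setting chosen after seeing the data. GAGAGA against intergenic peaks gave 0.891 with 25 bp windows. The first-intron share was 31.0% above the median signal and 27.9% with transcript 5′ ends. The share near internal 5′ ends was 23.1% with 500 bp and 42.4% with 2000 bp windows, and the intronic share was 9.92% with transcript 5′ ends. The causes of these shifts were not tested. Support by both replicates could not be computed with a replicate left out. No paired analysis was possible because there is 1 group. Depth limits all counts to peaks past the authors' threshold.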
